A study of Mus musculus with 7 samples.

Results

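Cathepsins are the proteases that break down proteins inside lysosomes, and 10 of their genes are described here: Ctsa, Ctsb, Ctsc, Ctsd, Ctsf, Ctsh, Ctsk, Ctsl, Ctss and Ctsz. They were chosen by gene symbol from 53801 gene rows, and each of the 10 symbols matched 1 row. RNA was measured in mesenchymal stromal cells of mouse bone marrow from 4 mice given an inhibitor of fibroblast activation protein (FAPi) and 3 mice given the vehicle DPBS, 1 library per replicate. All mice were male C57BL/6, 8 weeks old when treatment began. FAPi was given at 500 µg/kg, and both groups received 100 µl into the peritoneum each day for 35 days. The label FAPi names no compound. Per library, 7000 live cells were sorted as Pdgfra+ and CD45-, Ter119- and Tie2-, so the libraries hold a sorted mixture of stromal cells and no single cell type was isolated further.

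Cathepsins are made as inactive proenzymes, reach the lysosome mostly through the mannose-6-phosphate receptors, and become active in its acid interior. Most are cysteine proteases of the papain family, while cathepsin D is an aspartic protease and cathepsin A a serine carboxypeptidase. In bone, cathepsin K is known as the collagen-degrading enzyme of osteoclasts, and fibroblast-like stromal cells make it too. Transcription factors of the TFEB family drive many lysosomal genes through promoter elements built around the letters CACGTG. Fibroblast activation protein is itself a protease, but a serine protease of the cell surface that cuts after proline.

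The promoters are shown because they hold, or lack, the letters CACGTG, around which the element of many lysosomal genes is built. Only these letters were searched, and the bases flanking them in a longer element were not required. RefSeq promoter windows on GRCm38.p6, from 250 bases before to 50 bases after a transcription start, were matched for 8 of the 10 members. Ctsb and Ctsh had none in the table. The motif CACGTG, which reads the same on both strands, was found in windows of 4 of the 8 members, namely Ctsa, Ctsd, Ctsf and Ctsl. Ctsa had 2 windows: the window at the start of its gene span lacked the motif, and the window inside the span held it. The motif was found in 7.15% of all 32851 windows and in 8.09% of the 27025 genes with a window. Among the other lysosomal hydrolases that were listed, 6 of 27 genes with a window held it, and among genes of lysosomal sorting 6 of 12. No window of Ctsc, Ctsk, Ctss or Ctsz held it. The second motif, searched on both strands, is GAAA, any 2 bases and GAAA again, and resembles elements bound by interferon regulatory factors. It was found in Ctss and in no other window of the members, against 3.44% of all windows. The stretches below are 30 bases long, read 5′ to 3′ on the gene's strand, with the motif in capitals.
Ctsd, chr7:142388048-142388077, minus strand: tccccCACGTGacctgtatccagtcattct
Ctsd, chr7:142387908-142387937, minus strand: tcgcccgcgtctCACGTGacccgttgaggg
Ctsa, chr2:164833749-164833778, plus strand: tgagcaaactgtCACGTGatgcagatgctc
Ctsa, chr2:164833766-164833795, plus strand: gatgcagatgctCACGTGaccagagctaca
Ctsf, chr19:4855074-4855103, plus strand: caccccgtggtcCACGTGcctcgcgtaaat
Ctsl, chr13:64370739-64370768, minus strand: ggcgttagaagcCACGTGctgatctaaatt
Ctss, chr3:95526755-95526784, plus strand: gtctttaaatGAAACCGAAAtgaaagttca

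These matches are letters in a window, and binding was not measured. The RefSeq starts can differ from the starts of the gene spans given below. Both Ctsa stretches, the Ctsl stretch and the Ctsd stretch at 142387908 lie inside those spans. The members also differed in CpG content. The Ctsd window had 33 CpG pairs, more than 91.4% of all windows, and the Ctsk window had 2, more than 14.1% of them.

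Total gene counts ranged from 7492570 to 10569690 per library. The sorted cells carried their label: Pdgfra was at 383 to 439.9 CPM (counts scaled to library size, TMM-normalised) in FAPi libraries and at 317 to 365 CPM in DPBS libraries, and the stromal list of 12 genes summed to 30107 to 33709.9 CPM and 29795 to 32771 CPM. Transcripts of blood cells that the sort should remove were present. The neutrophil list summed to 199 to 652 CPM in FAPi and 702 to 2856 CPM in DPBS libraries, and the macrophage list to 127 to 182 CPM and 193 to 452 CPM, so neither overlapped. The erythroid list summed to 1548 to 3088 CPM in FAPi and 1666 to 15238 CPM in DPBS libraries. DPBS replicate 2 had the highest sum of all 3 lists. Of 12930 genes tested with edgeR, 0 passed an adjusted p of 0.05 in either direction (0.0% each way). At an unadjusted p under 0.05, 1053 genes were counted, and DESeq2 called 84 genes higher (0.65%) and 51 lower (0.394%). The p-values measure the spread between these 7 libraries.

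**Figure D1:**
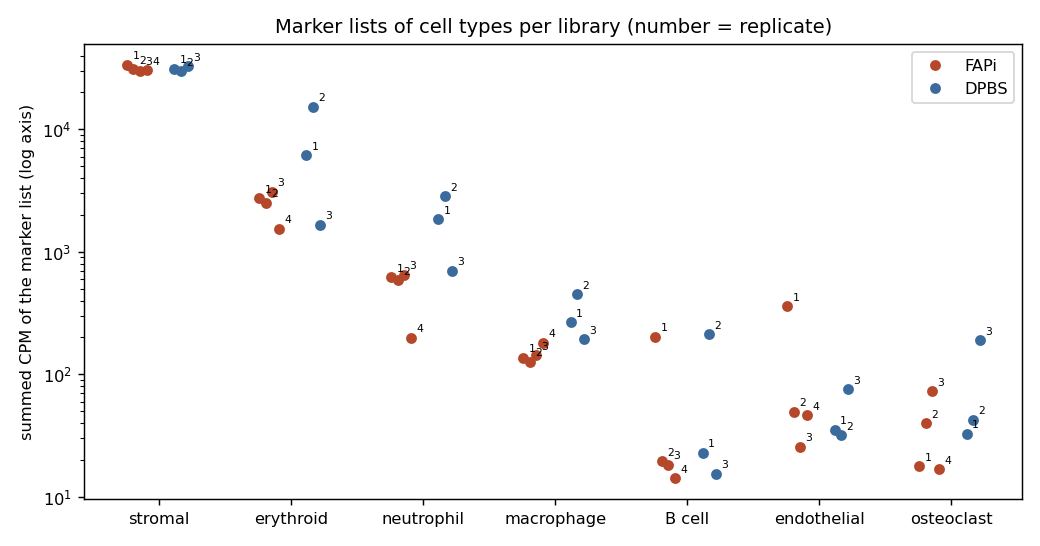
Summed CPM (log axis) of 7 lists of cell type markers in each library, FAPi left of DPBS, with the replicate number beside each point. The stromal sums lie close together, while neutrophil and macrophage sums are lower in every FAPi library than in every DPBS library, and DPBS replicate 2 is highest for erythroid genes at 15238 CPM.

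All 10 cathepsins were expressed and all 10 passed the filter on low counts. Their summed share of the counts was lower in each FAPi library than in any DPBS library, and the sum was not tested. With library totals as the scale, 7755 of 12930 tested genes had a lower estimate in FAPi libraries. The 10 genes held 0.132%, 0.0928%, 0.132% and 0.126% of the counts in FAPi replicates 1 to 4, and 0.168%, 0.147% and 0.139% in DPBS replicates 1 to 3. The interval of the lowest library, FAPi replicate 2, was 0.0909% to 0.0948% (95%, Wilson, counting error only). After TMM scaling the sum was 1269 ± 112 CPM in FAPi libraries (SD, n = 4) and 1417 ± 27.4 CPM in DPBS libraries (SD, n = 3). The scaled sums ran from 1107 to 1363 CPM and from 1385 to 1436 CPM, so the groups did not overlap but came close. In these bulk samples fewer cells of a type and less RNA per cell cannot be told apart.

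Of the 10 members, 8 had a lower estimate in FAPi mice and 2 a higher one, against 49.4% of all tested genes with a lower estimate. Their median log2 difference (FAPi minus DPBS) was -0.43, against 0.01 over all tested genes. None of the 10 passed the edgeR test, and 0 had an unadjusted p under 0.05, where 3.69% of all genes were lower and 4.45% higher by that rule. DESeq2 called 0 members, against 0.65% of genes higher and 0.394% lower. With library totals as the scale, which moves the median of all genes to -0.16, all 10 members had a lower estimate, against 7755 of 12930 genes. The median of the members on that scale was -0.60. For 3 members, Ctsa, Ctsd and Ctsk, every FAPi library was below every DPBS library, a pattern shown by 3.95% of all tested genes. No member was higher in every FAPi library, against 3.39% of all genes.

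**Figure D2:**
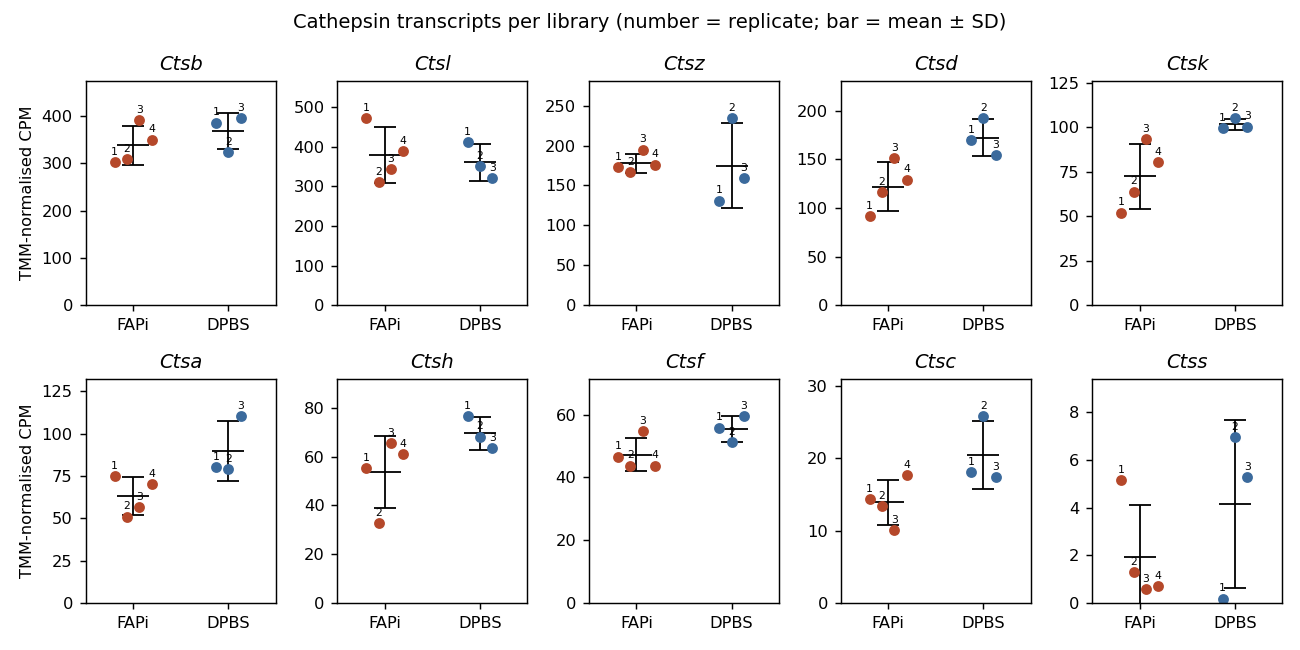
TMM-normalised CPM of each cathepsin by library, FAPi left and DPBS right, points numbered by replicate, with the mean ± SD (n = 4 and n = 3). The groups are apart for Ctsa, Ctsd and Ctsk and overlap for the other 7 genes. The FAPi error bar of Ctss is cut off at 0.

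Among the endopeptidases, Ctsk (ENSMUSG00000028111.4, chromosome 3, 95499256 to 95509362, plus strand, mm10) showed the tightest DPBS group. It had 52.1, 63.8, 93.3 and 80.3 CPM in FAPi replicates 1 to 4, against 99.6, 105 and 100.4 CPM in DPBS replicates 1 to 3. The 4 FAPi libraries spread over a wide range below 3 nearly equal DPBS values. The log2 difference was -0.49 ± 0.30 (SE), with a 95% interval of -1.16 to 0.18 (adjusted p = 0.714, edgeR). Leaving out 1 library at a time gave -0.63 to -0.36. Of the 10 osteoclast markers listed, Calcr, Ocstamp, Dcstamp, Oscar and Tnfrsf11a had 0 counts in all 7 libraries. The summed osteoclast list was 16.8 to 73.0 CPM in FAPi and 32.8 to 190.1 CPM in DPBS libraries. DPBS replicate 3 had the highest sum, 151 CPM of it from Nfatc1, a transcription factor gene. Acp5, the tartrate-resistant phosphatase of osteoclasts, averaged 14.4 ± 14.5 CPM in FAPi and 15.3 ± 2.83 CPM in DPBS libraries. FAPi replicate 3, highest of its group for Ctsk, was also highest for Acp5 at 35.6 CPM. Other values went another way. Mmp9 was highest in FAPi replicate 2 (14.5 CPM), where Ctsk was at 63.8 CPM. The osteoclast sum was lowest in FAPi replicate 4 (16.8 CPM), where Ctsk was at 80.3 CPM. The part of osteoclast RNA in Ctsk was not tested.

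Ctsl (ENSMUSG00000021477.9, chromosome 13, 64359337 to 64370890, minus strand) encodes a broad endopeptidase found in most cells. It had 471, 309.5, 344 and 389 CPM in FAPi replicates 1 to 4, and 411, 350 and 319.9 CPM in DPBS replicates 1 to 3. The groups overlapped fully, with FAPi replicates holding both the highest and the lowest value. Its log2 difference was 0.07 ± 0.24 (95% interval -0.45 to 0.59, adjusted p = 0.974), and the sign turned to -0.10 when libraries were scaled by their totals.

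Ctsb (ENSMUSG00000021939.8, chromosome 14, 63122462 to 63145923, plus strand) encodes an endopeptidase that also trims dipeptides from the end of proteins. It had 302, 309, 391 and 350.2 CPM in FAPi libraries and 386, 324 and 395 CPM in DPBS libraries, with overlap. Its log2 difference was -0.12 ± 0.22 (95% interval -0.61 to 0.36, adjusted p = 0.932). Ctsb and Ctsl took the largest shares of cathepsin reads, which also grow with transcript length. Ctsb held 26.7 ± 2.32% of the summed cathepsin CPM in FAPi and 26.1 ± 3.11% in DPBS libraries, and Ctsl held 29.8 ± 4.86% and 25.4 ± 2.97%.

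Ctsf (ENSMUSG00000083282.2, chromosome 19, 4855130 to 4860918, plus strand), a cysteine protease of the same family, varied little. Its values were 46.6, 43.7, 54.7 and 43.7 CPM in FAPi libraries and 55.8, 51.2 and 59.5 CPM in DPBS libraries. Only FAPi replicate 3 reached into the DPBS range. Between groups Ctsf had a log2 difference of -0.23 ± 0.31 (95% interval -0.93 to 0.46, adjusted p = 0.903).

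Ctss (ENSMUSG00000038642.10, chromosome 3, 95526786 to 95556403, plus strand) is known from antigen-presenting cells, where cathepsin S cuts the invariant chain. It was the lowest member per length, with 41, 10, 5 and 5 counts in FAPi replicates 1 to 4, and 2, 66 and 56 counts in DPBS replicates 1 to 3. That is 5.15, 1.29, 0.582 and 0.698 CPM in FAPi, and 0.179, 6.97 and 5.28 CPM in DPBS libraries. The libraries fell into high and low values within both groups, and the lowest of all was a DPBS library. Its log2 difference was -1.09 ± 1.22 (95% interval -3.78 to 1.60, adjusted p = 0.872), and single libraries moved it from -2.25 without FAPi replicate 1 to -0.50 without DPBS replicate 2. FAPi replicate 1 and DPBS replicate 2 also had the highest sums of the B cell list, 203 and 213 CPM, against 14.2 to 22.9 CPM in the other 5 libraries. DPBS replicate 3, with 5.28 CPM of Ctss, had a B cell sum of 15.4 CPM. The 18 macrophage markers, of which 17 were detected, were uneven. Most of their sum was Lyz2, a lysozyme gene that neutrophils also express, at 93.1 to 141 CPM in FAPi and 135 to 353 CPM in DPBS libraries. Some markers were highest in DPBS replicates 2 and 3, the DPBS libraries high for Ctss. Tyrobp was at 26.0 and 15.3 CPM in these, Cd68 at 5.18 and 5.56 CPM and Ptprc at 5.28 and 4.15 CPM. In FAPi replicate 1, the FAPi library high for Ctss, Tyrobp was at 9.29 CPM, Cd68 at 0.126 CPM and Ptprc at 0.377 CPM. Other markers of the list peaked elsewhere. Itgam was at 64.6 CPM in DPBS replicate 1, the library lowest for Ctss, and at 3.49 to 5.71 CPM in the rest. Cd14 was highest in FAPi replicate 3 (15.8 CPM) and C1qa in FAPi replicate 4 (13.8 CPM). Csf1r reached at most 0.388 CPM in FAPi and 1.51 CPM in DPBS libraries, Adgre1 at most 0.233 CPM in FAPi and 2.24 CPM in DPBS libraries, and Fcgr1 had 0 counts. A floor of 3 counts is 0.284 to 0.400 CPM in these libraries by their totals, before TMM scaling. Cd74, the invariant chain itself, had 16.6, 9.31, 4.43 and 3.35 CPM in FAPi and 6.63, 26.3 and 24.3 CPM in DPBS libraries, and of the 6 tested class II genes 4 had a lower estimate and 0 passed the test. Their median was -1.09, and -0.28 without DPBS replicate 2. The part of other cell types in the Ctss values was not tested.

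The exopeptidases trim proteins from their ends. Ctsh (ENSMUSG00000032359.14, chromosome 9, 90054152 to 90076089, plus strand), an aminopeptidase, had 55.2, 32.7, 65.6 and 61.1 CPM in FAPi libraries, against 76.6, 68.2 and 63.6 CPM in DPBS libraries. FAPi replicate 3 alone overlapped the DPBS range, and FAPi replicate 2 was the lowest. For Ctsh the log2 difference was -0.37 ± 0.34 (95% interval -1.13 to 0.38, adjusted p = 0.827).

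Ctsc (ENSMUSG00000030560.17, chromosome 7, 88278085 to 88310888, plus strand) encodes a dipeptidyl peptidase that activates the serine proteases of neutrophil and lymphocyte granules. It had 14.3, 13.4, 10.1 and 17.7 CPM in FAPi libraries, against 18.1, 25.8 and 17.4 CPM in DPBS libraries. The highest FAPi value lay just above the lowest DPBS value. The log2 difference was -0.56 ± 0.46 (95% interval -1.57 to 0.46, adjusted p = 0.801), and -0.36 without DPBS replicate 2, the library with the highest neutrophil sum (2856 CPM). The part of neutrophil RNA in this value was not tested.

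Ctsz (ENSMUSG00000016256.10, chromosome 2, 174427493 to 174439039, minus strand), a carboxypeptidase also called cathepsin X, was nearly constant in FAPi libraries and variable in DPBS libraries. It had 173, 167, 195 and 176 CPM in FAPi replicates 1 to 4, and 131, 234 and 159 CPM in DPBS replicates 1 to 3. The FAPi values lay inside the DPBS range. The log2 difference was 0.03 ± 0.27 (95% interval -0.57 to 0.62, adjusted p = 0.994), and its sign turned to -0.13 with library totals as the scale.

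The aspartic protease gene Ctsd (ENSMUSG00000007891.16, chromosome 7, 142375911 to 142388038, minus strand) had the smallest unadjusted p of the 10, at 0.0904. It had 91.9, 116, 151 and 129 CPM in FAPi replicates 1 to 4, against 169.9, 192 and 154 CPM in DPBS replicates 1 to 3. The groups were apart, although FAPi replicate 3 came close to DPBS replicate 3. The log2 difference was -0.50 ± 0.27 (95% interval -1.08 to 0.09, adjusted p = 0.675), and -0.61 to -0.38 with 1 library left out.

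The serine carboxypeptidase gene Ctsa (ENSMUSG00000017760.15, chromosome 2, 164832873 to 164841032, plus strand) encodes the protein that also shields beta-galactosidase and neuraminidase from breakdown. It had 74.9, 51.0, 56.5 and 70.1 CPM in FAPi replicates 1 to 4, against 80.3, 79.1 and 110.4 CPM in DPBS replicates 1 to 3. FAPi replicate 1 lay closest to the DPBS libraries. Its log2 difference was -0.51 ± 0.31 (95% interval -1.19 to 0.17, adjusted p = 0.710).

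**Figure D3:**
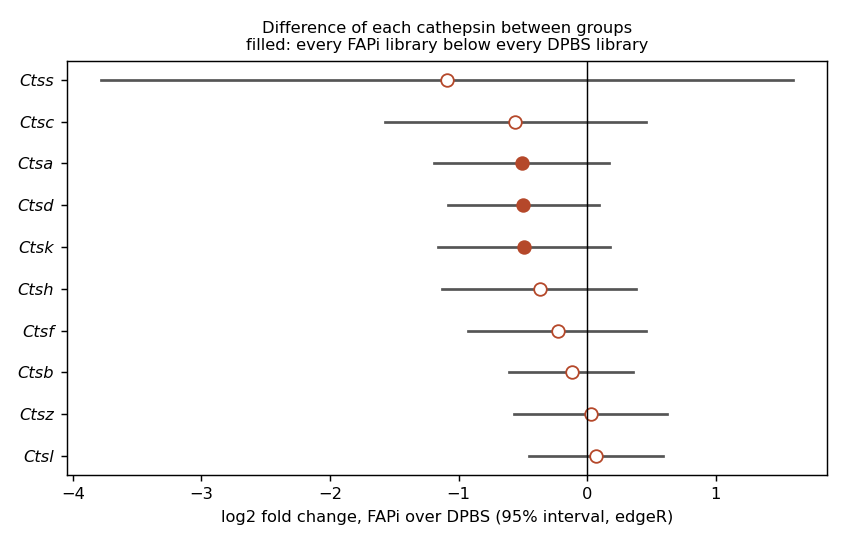
Log2 fold change of each cathepsin, FAPi over DPBS, with its 95% interval from edgeR. Filled points mark Ctsa, Ctsd and Ctsk, whose FAPi libraries were all below the DPBS libraries. Every interval includes 0, and that of Ctss runs from -3.78 to 1.60.

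The 3 members whose groups did not overlap were set beside the blood cell lists. DPBS replicate 3 had the lowest neutrophil and macrophage sums of its group (702 and 193 CPM) and an erythroid sum of 1666 CPM within the FAPi range, but the highest osteoclast sum at 190.1 CPM. In that library Ctsk was at 100.4 CPM, Ctsd at 154 CPM and Ctsa at 110.4 CPM. Each lay above every FAPi library, which follows from how the 3 genes were picked and carries no further information. Ctsd was at 151 CPM in FAPi replicate 3. The part of blood cell or osteoclast RNA in these 3 genes was not tested. Without DPBS replicate 2, which had the highest sums, the log2 differences were -0.47 for Ctsk, -0.41 for Ctsd and -0.60 for Ctsa.

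Levels of different members can be compared only per length, here as CPM per kilobase of the union of annotated exons. Ctsz was highest, with 123 ± 8.36 CPM per kilobase in FAPi and 121 ± 36.8 in DPBS libraries, and lay above Ctsd, the next in order, in 7 of 7 libraries. Ctsd, Ctsb, Ctsl and Ctsk followed, with means over all libraries of 61.0, 58.0, 57.1 and 56.2 CPM per kilobase. Their order was not stable: Ctsd exceeded Ctsb in 3 of 7 libraries, Ctsb exceeded Ctsl in 4, and Ctsl exceeded Ctsk in 3. Ctsa, Ctsh and Ctsf were at 15.8, 13.4 and 10.1 CPM per kilobase, and Ctsk lay above Ctsa in 7 of 7 libraries. Ctsc and Ctss were lowest, at 2.88 and 2.12, with Ctsc above Ctss in 4 of 7 libraries. The length used mattered most for Ctsl. With the shortest principal transcript, of 1971 bases against 6489 for the exon union, Ctsl came first at 188 CPM per kilobase.

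**Figure D4:**
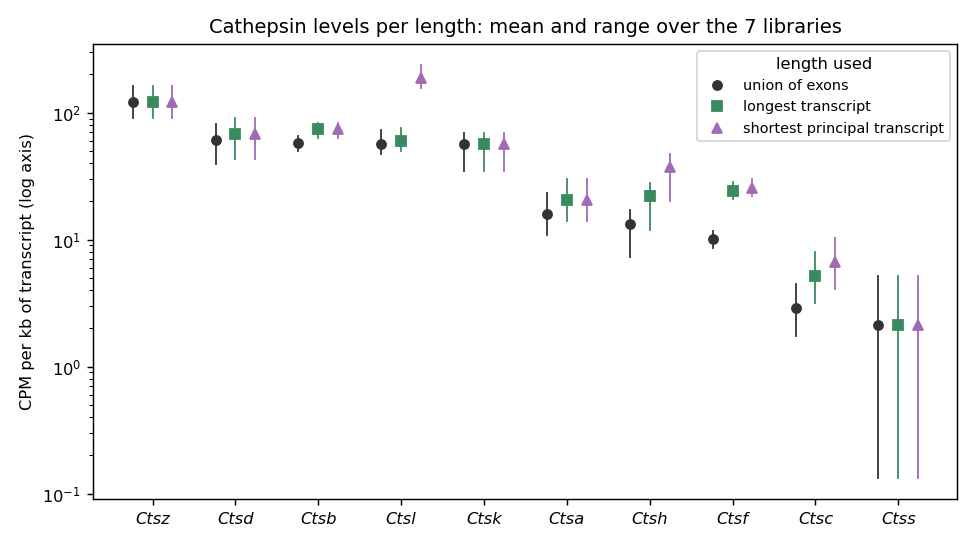
CPM per kilobase (log axis) of each cathepsin, mean and range over the 7 libraries, for 3 ways of taking the gene's length. Ctsz is highest by exon union (122 on average) and by longest transcript, and Ctsl by shortest principal transcript (188), while Ctsc and Ctss are lowest throughout.

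The members other than Ctss had a lower coefficient of variation than the median gene. The coefficient of variation over all 7 libraries was 11.5% for Ctsb, 12.3% for Ctsf and at most 29.5% for the members other than Ctss, which had 97.7%. The median of all tested genes, whose levels differ, was 54.3%. Pairs of members moved together to different degrees. Across the 7 libraries, in which both values of a pair share 1 library and its scaling, Ctsd and Ctsk were the closest pair (Pearson r = 0.971 of log2 CPM, as a description). Ctsb and Ctsf had 0.787, whereas Ctsk and Ctsl had -0.412 and Ctsb and Ctss -0.441. The genes most like Ctsk among 9614 compared were Gstm1, a glutathione transferase gene (r = 0.985, Spearman 0.929), Pcgf5, a Polycomb gene (0.977, 0.893), and Ctsd (0.971, 0.964). Without FAPi replicates 1 and 2, the farthest from the median, r was 0.872, 0.858 and 0.917. The genes most like Ctss among 9615 were Rep15 (r = 0.980, Spearman 0.964), Rmnd5b (0.975, 0.893) and Eif4h (0.964, 0.964). Without DPBS replicates 1 and 2, r was 0.982, 0.949 and 0.983. The genes most like Ctsk and Ctss were picked as the highest of 9614 and 9615 correlations over 7 libraries. High r is owed at least in part to that picking. The values with libraries left out come from the same libraries and are no separate check.

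Most other cathepsins were not detected at this depth. Of 15 further cathepsins and related proteases, 9 had 0 counts in all libraries (the rodent placental group and Ctsll3), and 3 were tested. Of the 3, 2 were estimated lower (median -0.41, close to that of the 10 members), and without DPBS replicate 2 the median was 0.03. Ctse, an aspartic protease known from red cells, had 66.9, 123, 109 and 45.6 CPM in FAPi and 161, 439 and 74.1 CPM in DPBS libraries. DPBS replicate 2, highest for Ctse, was also highest for erythroid genes, and the log2 difference of -1.38 ± 0.54 (adjusted p = 0.551) was -0.44 without it. The part of erythroid RNA in Ctse was not tested. Lgmn, which encodes legumain, a processing protease of cathepsins, had 75.9, 36.1, 40.4 and 114 CPM in FAPi and 36.5, 38.3 and 37.9 CPM in DPBS libraries. FAPi replicates 1 and 4 were high, and the log2 difference was 0.83 ± 0.45 (adjusted p = 0.675). Ctso, a cysteine protease gene, had a log2 difference of -0.41 ± 0.42 (adjusted p = 0.853). Ctsg, the cathepsin G gene of neutrophil granules, had 0 to 4 counts in 6 libraries and 90 in DPBS replicate 2.

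No inhibitor of cathepsins passed the test. The 13 listed genes summed to 3682 to 4264 CPM in FAPi and 4138 to 4717 CPM in DPBS libraries, most of it Cst3. Cst3, which encodes cystatin C, the secreted inhibitor of cysteine cathepsins, had 2935 ± 230.1 CPM in FAPi and 3357 ± 413 CPM in DPBS libraries (log2 difference -0.19 ± 0.19, adjusted p = 0.842). Cstb, the inhibitor of the cytosol, had 156 ± 40.7 CPM in FAPi and 187 ± 53.8 CPM in DPBS libraries. Of 5 tested inhibitors 4 were estimated lower (median -0.10), and 0 passed the test. Kng1 and Ahsg, which encode cystatin-type proteins of the plasma, had log2 differences of -0.10 ± 0.24 and 0.21 ± 0.47.

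Differences between the lysosome lists were not tested. In the list of 37 other lysosomal hydrolases, 36 were tested, with 21 lower and 15 higher estimates and a median of -0.02. Gm2a, an activator protein of ganglioside breakdown, had 898 to 2094 CPM in FAPi and 793 to 1198 CPM in DPBS libraries. Scpep1, a serine carboxypeptidase related to cathepsin A, had 87.2, 124, 40.5 and 114 CPM in FAPi and 36.6, 31.5 and 53.9 CPM in DPBS libraries (log2 difference 1.17 ± 0.43, adjusted p = 0.522). Manba, which encodes beta-mannosidase, was at 14.1 ± 4.61 CPM in FAPi and 29.2 ± 14.7 CPM in DPBS libraries, without overlap, and its log2 difference of -1.05 ± 0.49 was -0.56 without DPBS replicate 2. It was the 1 hydrolase of 36 lower in every FAPi library, against 3.95% of all genes. Galns and Ids, which encode sulfatases of glycosaminoglycan breakdown, were the 2 that were higher in every FAPi library, against 3.39% of all genes. Galns was at 17.0 ± 2.97 CPM in FAPi and 7.97 ± 4.81 CPM in DPBS libraries, and Ids at 21.3 ± 3.96 CPM in FAPi and 12.9 ± 3.29 CPM in DPBS libraries. Ppt1 and Npc2 had log2 differences of -0.81 ± 0.41 and -0.25 ± 0.23, and Ppt1 was at -0.18 without DPBS replicate 3. The 14 lysosomal membrane genes had a median of -0.11, with 9 lower estimates. Cd63, a tetraspanin of late endosomes, averaged 717 ± 106 CPM in FAPi and 779.5 ± 131 CPM in DPBS libraries, and Npc1, the cholesterol exporter, was at 213 CPM in FAPi replicate 2 and 8.87 to 25.5 CPM in the other 6 libraries. Ctns, the cystine exporter, was higher in every FAPi library (log2 difference 1.34 ± 0.67) and Tmem9 lower in every one (-0.56 ± 0.38), while Laptm4a was at -0.09 ± 0.27. That is 1 of 14 membrane genes each way, against 3.39% of all genes higher and 3.95% lower. The proton pump that acidifies the lysosome had 16 tested subunits, 7 lower and 9 higher, with a median of 0.03. Atp6v1a, its catalytic subunit, was at 285 CPM in DPBS replicate 2, and its log2 difference of -2.01 ± 0.61 (adjusted p = 0.488) came to -0.78 without that library. Atp6v1b2, another subunit of the same part of the pump, was lower in every FAPi library (log2 difference -0.84 ± 0.45). It was the 1 subunit of 16 with that pattern, against 3.95% of all genes. Atp6v0b was at -0.47 ± 0.32, Atp6v1g1 at -0.10 ± 0.33 and Atp6v0e at -0.06 ± 0.26 on that scale. None of these genes passed the edgeR test.

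Sorting and control of the lysosome were measured as well. Igf2r, the cation-independent mannose-6-phosphate receptor, had 133, 162, 135 and 131 CPM in FAPi replicates 1 to 4, against 79.5, 121 and 85.8 CPM in DPBS replicates 1 to 3. Every FAPi library was above every DPBS library, as for 1 of the 15 sorting genes and 3.39% of all tested genes. The log2 difference of Igf2r was 0.55 ± 0.27 (adjusted p = 0.645). Gnptab, which encodes part of the enzyme that makes the mannose-6-phosphate tag, had 38.1 ± 12.0 CPM in FAPi and 21.4 ± 8.72 CPM in DPBS libraries (log2 difference 0.83 ± 0.45, adjusted p = 0.686). Sorl1, a sorting receptor, had 26.0, 48.2, 7.11 and 14.8 CPM in FAPi and 3.40, 7.82 and 4.52 CPM in DPBS libraries, with a log2 difference of 2.19 ± 0.72 (adjusted p = 0.490). Lrp1 and Vps29 were at -0.24 ± 0.25 and -0.33 ± 0.36 on the log2 scale. The 15 sorting genes had 8 lower and 7 higher estimates and a median of -0.08. Of 14 tested regulators 10 were estimated lower (median -0.33), and without DPBS replicate 2 the numbers were 7 of 14 and 0.08. For comparison, the cathepsins without that library had 8 lower estimates and a median of -0.37. Tfeb was scarce, with 6.40, 0.517, 0.349 and 0.838 CPM in FAPi and 7.97, 5.60 and 5.18 CPM in DPBS libraries (log2 difference -1.62 ± 1.10, adjusted p = 0.743). Without FAPi replicate 1, the one FAPi library in the DPBS range, the Tfeb difference was -3.44, and without FAPi replicate 3 it was -1.27. In FAPi replicates 2 to 4 Tfeb had 4, 3 and 6 counts, near the floor of 3 counts, so the size of its difference is uncertain. Tfe3, its relative, was at 16.1 ± 6.05 CPM in FAPi and 31.7 ± 24.2 CPM in DPBS libraries, with a log2 difference of -0.98 ± 0.55 that was -0.14 without DPBS replicate 2, and Mitf was below the filter. Zkscan3, a repressor of lysosomal genes, had a log2 difference of 0.39 ± 0.29, and Lamtor2 and Lamtor5, of the complex that anchors nutrient sensing to the lysosome, had 0.10 ± 0.26 and -0.25 ± 0.29. None of the listed sorting genes and regulators passed the edgeR test.

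**Figure D5:**
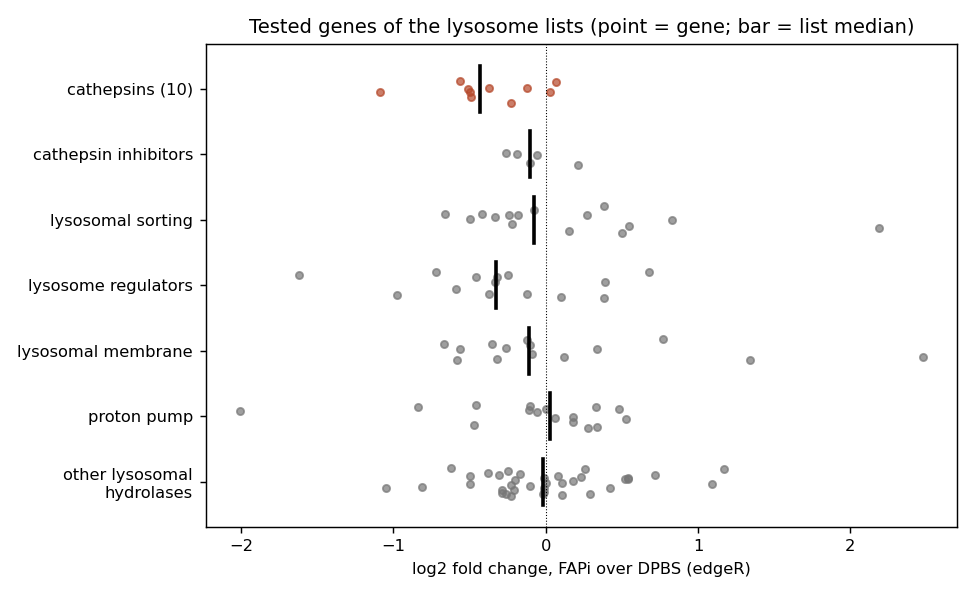
Log2 fold change (FAPi over DPBS) of the tested genes in 7 lists of lysosome genes, 1 point per gene, with a bar at each list's median. The median is -0.43 for the cathepsins, -0.33 for the regulators and between -0.11 and 0.03 for the other 5 lists. The 3 further cathepsins tested, with a median of -0.41, are not plotted.

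Overlapping genes could affect some of these counts. The exons of Ctsd share 808 bases (34.4% of its exon length) with Gm49369 on the same strand, which had 0 counts. Ctsl shares 26.8% of its exon length with the antisense gene Gm47123 and 6.09% with the pseudogene Gm49230, both with 0 counts. Ctsb shares 12.8% with Fdft1 and Ctsa 10.5% with Pltp, on the opposite strand, and these partners had 317 and 203 counts over all libraries, against 22243 for Ctsb and 4795 for Ctsa. Whether reads in shared exons were dropped was not tested. If they were, the levels per kilobase of Ctsd, Ctsl, Ctsb and Ctsa could be too low, and the order of the members could change.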

How the data were processed

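The authors deposited whole-number gene counts and CPM values (counts scaled to the library total) for 7 libraries. The submitters' processing notes name STAR, HTSeq and mm10. Reads were paired and libraries made by a modified Smart-seq2 method, per the labels' protocols. The sources used here do not give the annotation or the strand setting. The deposited CPM equal count over total to within 4.55e-05 CPM, and 6 CPM tables repeat their end, which was dropped. Symbols, positions and exon lengths come from GENCODE release M21 (53706 of 53801 gene IDs matched).

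The test on the deposited counts was the quasi-likelihood test of edgeR 4.0.16 under R 4.3.3 (filterByExpr by group, minimum count 10, TMM, robust glmQLFit and glmQLFTest), which left 12930 genes, with Benjamini-Hochberg adjustment and a threshold of 0.05. The test was also run on simulated data, where it missed most of the smaller changes, so a gene that did not pass may still differ. The SE is the absolute log2 difference over the square root of F. Correlations use log2 CPM with a prior count of 2. DESeq2 1.42.0, limma 3.58.1 (also on log2 of the deposited CPM plus 1), other scalings, no filter, the replicate block and the omission of each library were alternatives. Intervals of log2 differences come from edgeR and rest on the spread between libraries. The Wilson intervals of shares and the floors cover counting error only.

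The members and lists were chosen with earlier results of these data known. Named genes were the members, the 3 genes most like Ctsk and Ctss, and Tfeb, Tfe3, Mitf, Cst3 and Cstb. From marker lists the 3 with the highest CPM were picked. From every other list the 3 with the smallest p and the 2 with the highest CPM were picked. Class II and marker lists are given mostly as sums and medians, and not all of their picked genes are named. Pdgfra, Csf1r, Adgre1, Cd68, Ptprc, Cd14, C1qa, Ctsg, Galns, Ids and the genes at 0 counts were named after their values were seen.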

Additional observations from a re-analysis of the deposited data

Results flagged for a closer look

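Among the 4 FAPi libraries, 84 genes and list sums were examined for 1 library standing apart, measured as the distance from that library to the closest of the rest, as a part of the whole spread. This singled out 15 of them. About 1 in 20 would be by chance if the values were independent and normally spread, which was not tested for these CPM, so no excess can be read from the 15. Several of the 15 share genes. Among the cathepsins this was Ctss, at 5.15 CPM in FAPi replicate 1 against 0.582 to 1.29 CPM in the other 3.

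FAPi replicate 1 was also far above the others for Tfeb (6.40 CPM against 0.349 to 0.838), Cd79a (32.1 against 2.23 to 4.52), Cd79b (51.5 against 2.58 to 3.49), Igll1 (51.0 against 5.30 to 6.72) and Kdr (340.3 against 6.06 to 15.5). The B cell sum was 203 CPM there against 14.2 to 19.6, and the endothelial sum 359.8 CPM against 25.7 to 49.4. Col1a2 was below the others at 2737 CPM, against 3065 to 3129.

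FAPi replicate 2 stood above the others for Npc1 (213 CPM against 15.1 to 25.5), Igf2r (162 against 131 to 135) and Mmp9 (14.5 against 3.21 to 4.90). FAPi replicate 3 was above for H2-DMa (6.06 CPM against 0.502 to 0.977). FAPi replicate 4 was above for Lyz2 (141 CPM against 93.1 to 99.0), and its neutrophil sum of 199 CPM was below 589 to 652.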

How the results depend on the processing

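None of the 10 cathepsins passed the threshold under any of the settings run, with a smallest adjusted p of 0.534 (library totals as the scale). Of 140 log2 differences under other settings, 131 kept their direction and 9 turned, all of Ctsl and Ctsz. With library totals Ctsl was -0.10 and Ctsz -0.13, and with limma on the deposited CPM both were -0.11. These settings shift the median of all genes to -0.16 and -0.17. With 1 library left out Ctsl ran from -0.05 to 0.17 and Ctsz from -0.15 to 0.29. An unadjusted p under 0.05 was reached by Ctsd with library totals, and by Ctsd and Ctsk with limma on the deposited CPM. Over all genes, edgeR called 0 higher and 0 lower, DESeq2 84 and 51, and edgeR without the filter 5 and 1. Only higher genes were called by voom weights (1), by limma on the deposited CPM (2) and at an adjusted p of 0.1 (1). The omission of single libraries yielded between 0 and 2 higher and between 0 and 1 lower, with every call made in the absence of DPBS replicate 3. With the replicate block 0 genes were called, 718 reached an unadjusted p under 0.05 (1053 without it), and no cathepsin call changed. Libraries with the same number did not deviate together (correlations -0.00843, -0.0184 and -0.051). With so few libraries this shows no strong shared effect, but it cannot tell whether they were paired. The shortest principal transcript as length, and the list counts without DPBS replicate 2, were added after seeing the data. Depth limits Ctss most, with 2 to 66 counts per library.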
